A study of Rattus norvegicus with 3 samples.

Results

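Rat Achilles tendon stem/progenitor cells (TSPCs) were examined for the genes that set the pace of the step from G1 to S phase, namely the D and E cyclins, the inhibitors of cyclin-dependent kinases (CDKs) and the pocket protein gene *Rbl1*. The genes were chosen by name, with earlier results of these data known, as *Ccnd1*, *Ccnd2*, *Ccnd3*, *Ccne1*, *Ccne2*, *Cdkn1a*, *Cdkn1b*, *Cdkn2b*, *Cdkn2c* and *Rbl1*. All 10 of them were measured, by 16 of the 31042 probe sets, out of 14216 genes with a probe set in all. The groups were TSPCs-1d, TSPCs-7d and TSPCs-56d, from rats aged 1, 7 and 56 days, with 1 Affymetrix Rat Genome 230 2.0 array per group. All cultures were untreated, grown in low glucose DMEM with fetal bovine serum, and used at passage 2. Tendons of at least 2 animals were mixed for each culture, the cells were expanded from colonies of several clones, and the sex of the animals is not given in the sources used here. The values are signals in linear intensity units that the authors normalized. No p-value was computed, since a single array per age leaves no replicate check, and a difference between cultures and one between ages cannot be told apart. The precision is limited by the number of arrays.

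D cyclins appear when growth factors act on a cell and switch on CDK4 and CDK6, and E cyclins follow and switch on CDK2. Both kinase pairs phosphorylate the pocket proteins, the retinoblastoma protein and its relatives, which then release the E2F transcription factors that turn on the genes of DNA replication. The Cip/Kip inhibitors p21 (*Cdkn1a*) and p27 (*Cdkn1b*) bind cyclin-CDK complexes, whereas the INK4 inhibitors p15 (*Cdkn2b*) and p18 (*Cdkn2c*) bind CDK4 and CDK6.

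The members had distinct patterns over the 3 cultures. In their brightest probe sets, *Ccne2*, *Cdkn2c* and *Rbl1* had more than 2-fold the TSPCs-1d signal in TSPCs-7d, and *Ccne1* was highest in TSPCs-7d too. The 3 D cyclins were lowest in TSPCs-56d, and *Cdkn1a* was highest in TSPCs-1d. In bulk cultures, fewer cells in a phase of the cycle and less RNA per cell cannot be told apart. A probe set was called at the study's cutoff of a 2-fold ratio. Since the genes were picked with earlier results known, their counts are not independent of these data. Between TSPCs-7d and TSPCs-1d, 3 of the 16 probe sets were called higher and 0 lower, where 1.36% of all probe sets on the array were higher and 0.989% lower. With each array scaled to its median the counts were 3 and 1. Between TSPCs-7d and TSPCs-56d, 0 were called higher and 0 lower, with 1.68% and 1.31% of all probe sets. Between TSPCs-56d and TSPCs-1d, 0 were higher and 1 lower, a probe set of *Cdkn1a*, with 1.52% and 1.8%.

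At 1.5-fold the counts were larger. In TSPCs-7d vs. TSPCs-1d they were 4 higher and 2 lower (4.1% and 3.58% of all probe sets), against TSPCs-56d they were 6 and 0 (4.91% and 4.94%), and in TSPCs-56d vs. TSPCs-1d they were 0 and 7 (6.39% and 5.01%). Some of these are probe sets of the same gene. By brightest probe set of the 10 genes the counts were 4 and 1, 5 and 0, and 0 and 4. The shares of all genes were 4.82% and 3.33%, 4.99% and 5.44%, and 7.08% and 4.29%. The median log2 ratio of the 16 probe sets was -0.06, 0.43 and -0.16 in the same order of comparisons, with 0.01, -0.05 and 0.05 over all probe sets. Over the 10 genes by brightest probe set it was 0.26, 0.59 and -0.06, with 0.01, -0.05 and 0.06 over all genes. The sign in TSPCs-7d vs. TSPCs-1d thus depended on how probe sets were counted. Signals of different probe sets are not on a common scale, so levels were compared between arrays and not between genes. The disagreement of probe sets of a gene served as a guide to noise of a single probe set. It holds no spread between cultures. Over 1714 genes with a pair of probe sets of at least moderate signal, the log2 ratios within the pair were more than 0.39 apart for 10% of genes in TSPCs-7d vs. TSPCs-1d, 0.44 against TSPCs-56d and 0.53 in TSPCs-56d vs. TSPCs-1d.

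**Figure D1:**
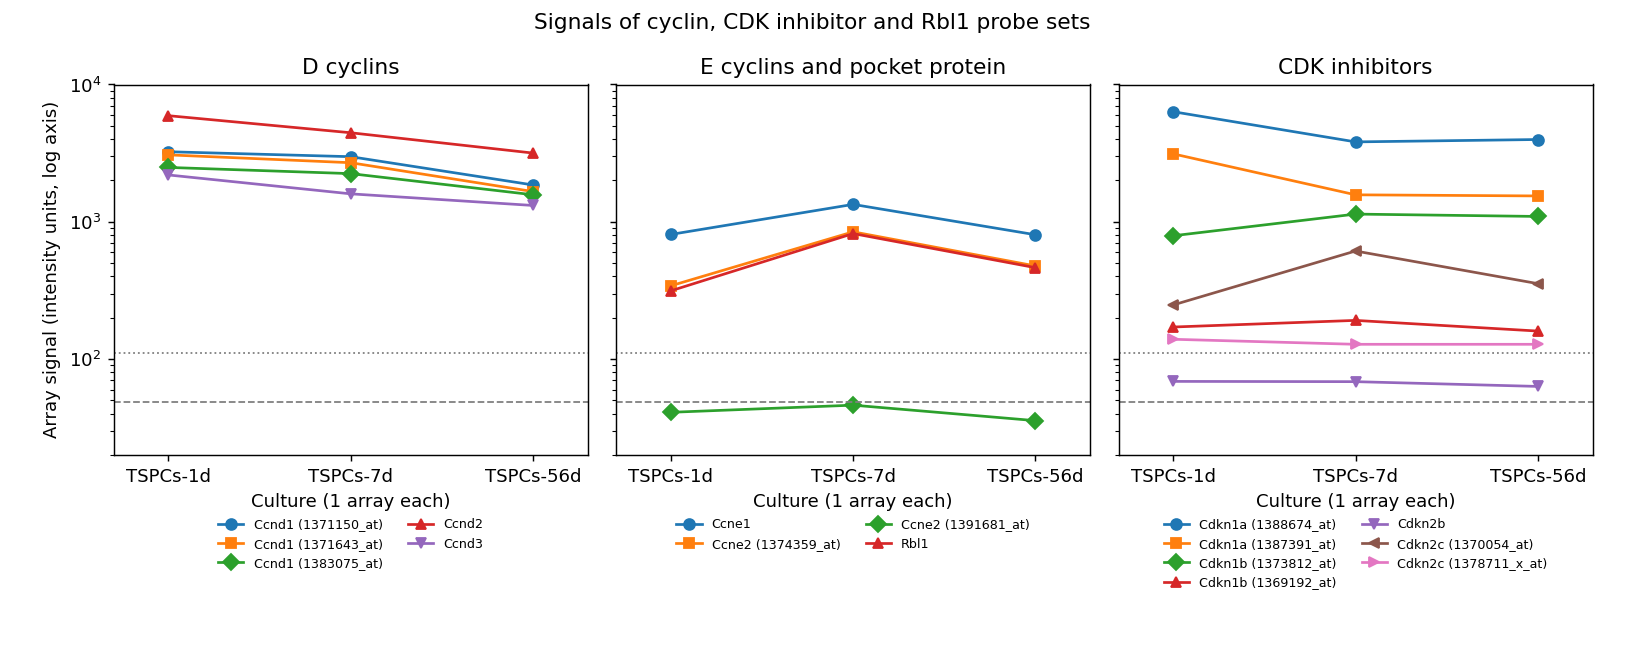
Array signal (intensity units, log axis) of the 16 probe sets by culture, 1 point per array, with the median (110.1, dotted) and the 25th percentile (48.9, dashed) of all signals. The D cyclins are lowest in TSPCs-56d, *Ccne1*, *Rbl1* and the brighter probe sets of *Ccne2* and *Cdkn2c* are highest in TSPCs-7d, and both probe sets of *Cdkn1a* are highest in TSPCs-1d.

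The D cyclins had the same order in all 5 of their probe sets, highest in TSPCs-1d and lowest in TSPCs-56d. *Ccnd1* encodes cyclin D1, the D cyclin most used by fibroblast-like cells. Its brightest probe set had signals of 3237 (TSPCs-1d), 2980 (TSPCs-7d) and 1854 (TSPCs-56d). The other probe sets had 3071, 2693 and 1660, and 2489, 2242 and 1573, in the same order of cultures. Between TSPCs-7d and TSPCs-1d the step was small in all 3 probe sets, with log2 ratios of -0.19 to -0.12, under the 0.39 that 10% of the pairs exceeded. The step to TSPCs-56d was larger. The log2 ratio of TSPCs-56d over TSPCs-1d was between -0.89 and -0.66, and that of TSPCs-7d over TSPCs-56d between 0.51 and 0.70.

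*Ccnd2* and *Ccnd3* encode cyclins D2 and D3, which can stand in for cyclin D1 in many cells. *Ccnd2* had signals of 5927 (TSPCs-1d), 4452 (TSPCs-7d) and 3166 (TSPCs-56d), and *Ccnd3* had 2193, 1598 and 1315. In TSPCs-7d vs. TSPCs-1d the log2 ratios were -0.41 for *Ccnd2* and -0.46 for *Ccnd3*, each in a single probe set. These were a little beyond that guide of 0.39, which does not measure the spread between cultures. In TSPCs-56d, *Ccnd2* was 1.87-fold and *Ccnd3* 1.67-fold under its TSPCs-1d signal. None of the D cyclin probe sets passed 2-fold in any comparison, but all 5 were lower by over 1.5-fold in TSPCs-56d vs. TSPCs-1d. With each array scaled to its median, *Ccnd2* came just past 2-fold there.

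**Figure D2:**
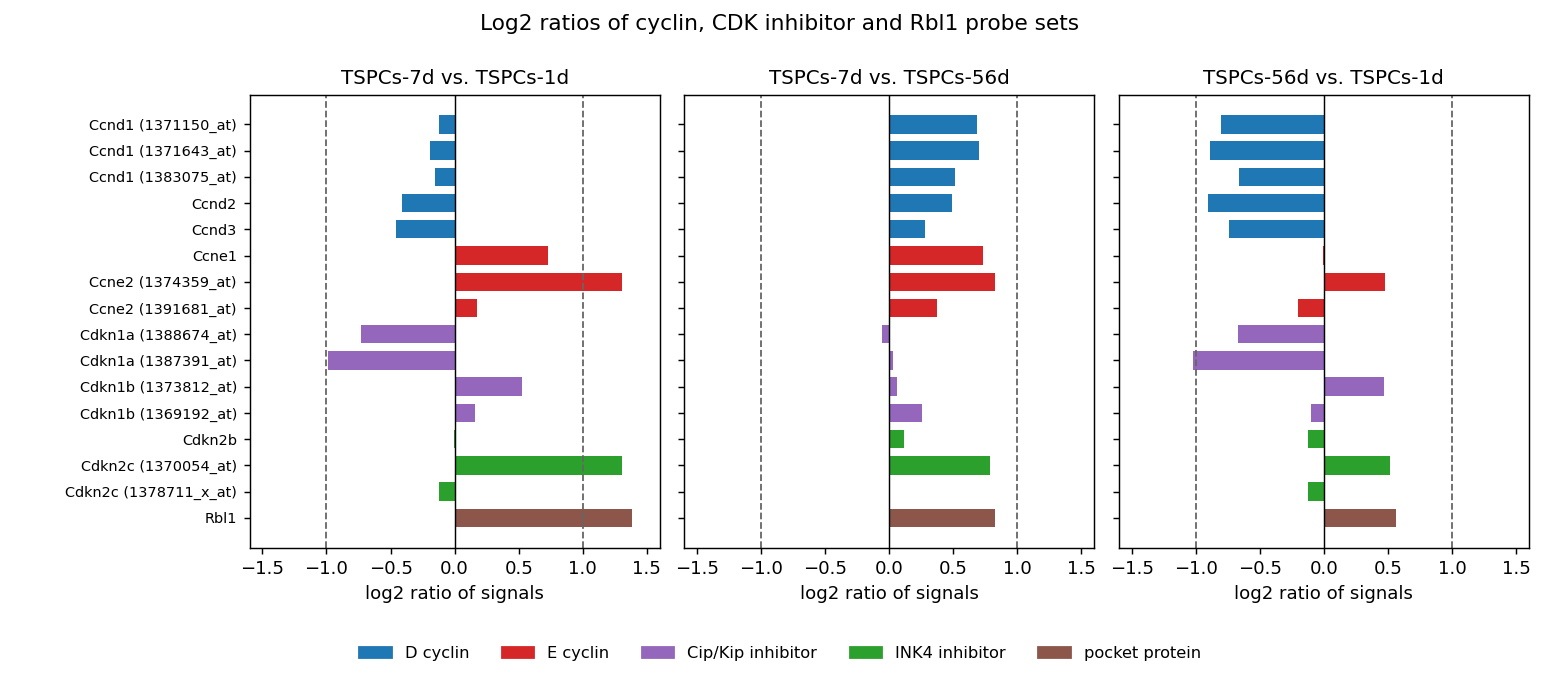
Log2 ratio of signals (horizontal bars, 1 per probe set) in each of the 3 comparisons of a pair of cultures, coloured by role, with dashed lines at 2-fold. In TSPCs-56d vs. TSPCs-1d the D cyclin bars lie between -0.90 and -0.66, and in TSPCs-7d vs. TSPCs-1d the bars of *Rbl1* (1.39) and of the brighter probe sets of *Ccne2* and *Cdkn2c* (1.31 each) reach past 2-fold.

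The E cyclins were highest in TSPCs-7d. *Ccne1* encodes cyclin E1, the partner of CDK2 at the entry into S phase. Its signals were 809 (TSPCs-1d), 1339 (TSPCs-7d) and 804 (TSPCs-56d), so that of TSPCs-7d was 1.66-fold over each of the others. *Ccne2* encodes the related cyclin E2, and its brighter probe set had 342, 845 and 477. The TSPCs-7d signal was 2.47-fold over TSPCs-1d and 1.77-fold over TSPCs-56d. The second probe set of *Ccne2* had 40.9, 46.1 and 35.6, all under the 25th percentile of all signals (48.9), so no fold change was read from it and the call of *Ccne2* rests on 1 probe set. In TSPCs-56d, *Ccne2* was at 1.40-fold its TSPCs-1d signal, a log2 ratio of 0.48 against a guide of 0.53, while the difference of *Ccne1* between these cultures (-0.01) changed sign with the scaling.

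*Rbl1* encodes p107, a pocket protein that binds E2F factors and is itself made by cycling cells. It had the largest ratio of the 16 probe sets, with signals of 314 (TSPCs-1d), 820.3 (TSPCs-7d) and 463 (TSPCs-56d). This was 2.61-fold over TSPCs-1d and 1.77-fold over TSPCs-56d, in a single probe set. Among the INK4 genes, *Cdkn2c* had 248, 613 and 354 in its brighter probe set, with TSPCs-7d at 2.47-fold the TSPCs-1d signal and 1.73-fold that of TSPCs-56d. Its weaker probe set did not share this. It had 139, 128 and 128, a ratio of 0.919 in TSPCs-7d vs. TSPCs-1d, and the log2 ratios of both were 1.43 apart. The name of the weaker one ends in x, which on this array marks probes that can also bind other transcripts. *Cdkn2b*, an INK4 gene that TGF-beta can induce in epithelial cells, had even signals of 68.7, 68.4 and 63.2. These lay under the median of all signals (110.1), and a difference may not be visible at this brightness.

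The promoters of *Rbl1*, *Cdkn2c*, *Cdkn1b* and *Ccne1* are shown here because their brightest probe sets were highest in TSPCs-7d. For *Cdkn1b* that signal was only 1.04-fold the one in TSPCs-56d. Capitals mark the core of the E2F motif, which the *Ccne1* window does not hold. The sequences are from RefSeq (GRCr8), run 5′ to 3′ along the gene, and cover 250 bases before to 50 bases after the gene start. They lie at chr3:166289327-166289626 (*Rbl1*), chr5:129644842-129645141 (*Cdkn2c*) and chr1:99927860-99928159 (*Ccne1*), each on the minus strand, and at chr4:169491254-169491553 (*Cdkn1b*) on the plus strand.
Rbl1: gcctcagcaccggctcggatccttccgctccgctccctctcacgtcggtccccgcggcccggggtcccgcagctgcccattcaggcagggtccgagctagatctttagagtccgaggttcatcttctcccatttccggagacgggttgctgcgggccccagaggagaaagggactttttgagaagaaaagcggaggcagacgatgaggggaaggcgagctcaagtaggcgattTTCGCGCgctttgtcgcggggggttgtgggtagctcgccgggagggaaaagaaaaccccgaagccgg
Cdkn2c: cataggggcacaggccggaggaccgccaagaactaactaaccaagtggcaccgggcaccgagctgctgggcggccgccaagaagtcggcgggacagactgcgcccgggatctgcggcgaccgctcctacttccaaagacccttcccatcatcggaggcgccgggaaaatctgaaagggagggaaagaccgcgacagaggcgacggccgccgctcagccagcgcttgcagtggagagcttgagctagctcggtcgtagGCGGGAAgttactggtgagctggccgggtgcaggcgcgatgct
Cdkn1b: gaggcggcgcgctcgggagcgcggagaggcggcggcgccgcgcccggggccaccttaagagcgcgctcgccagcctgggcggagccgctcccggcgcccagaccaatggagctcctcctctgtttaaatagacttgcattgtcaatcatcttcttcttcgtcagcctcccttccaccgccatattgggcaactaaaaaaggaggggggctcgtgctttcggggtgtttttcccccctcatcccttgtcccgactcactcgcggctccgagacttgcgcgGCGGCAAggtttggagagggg
Ccne1: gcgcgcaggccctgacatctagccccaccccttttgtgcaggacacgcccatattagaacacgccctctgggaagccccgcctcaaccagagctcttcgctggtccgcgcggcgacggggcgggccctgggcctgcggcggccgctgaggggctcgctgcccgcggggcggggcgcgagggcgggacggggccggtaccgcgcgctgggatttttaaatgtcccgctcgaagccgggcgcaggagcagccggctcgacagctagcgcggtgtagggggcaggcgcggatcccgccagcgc
The table held promoters of 7 of the 10 genes, all but *Ccnd1*, *Ccnd2* and *Ccne2*. The E2F motif was searched on both strands in its 8-letter forms TTTGGCGC, TTTCCCGC, TTTCGCGC and TTTGCCGC. Of the 7, *Rbl1* held one, while 2.14% of all 33469 promoters held at least 1 of the forms. Among promoters of protein-coding genes the share was 2.73%. The 7-letter cores, which are the same forms without their first letter and so overlap them, were searched after that result was seen. A core was found in *Rbl1* (at base 234 of the window), in *Cdkn2c* (at base 258, on the opposite strand) and in *Cdkn1b* (at base 280, on the opposite strand), and in 9.52% of all promoters. Of promoters of protein-coding genes, 11.7% held a core. These are matches of letters and not measured binding sites.

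The Cip/Kip inhibitors did not move together. *Cdkn1a*, the p21 gene and a target of p53, was highest in TSPCs-1d in both of its probe sets. The brighter one had signals of 6336 (TSPCs-1d), 3818 (TSPCs-7d) and 3974 (TSPCs-56d), and the other had 3123, 1572 and 1542. Against TSPCs-1d, *Cdkn1a* was 1.66-fold and 1.99-fold lower in TSPCs-7d, and 1.59-fold and 2.02-fold lower in TSPCs-56d, in these probe sets. With each array scaled to its median, the second probe set passed 2-fold in TSPCs-7d as well, with a log2 ratio of -1.01. In TSPCs-7d vs. TSPCs-56d the log2 ratios were -0.06 and 0.03, and the first of these changed sign with the scaling. *Cdkn1b*, the p27 gene, whose protein is high in resting cells and removed as they enter S phase, had 791, 1138 and 1094 in its brighter probe set. This was 1.44-fold the TSPCs-1d signal in TSPCs-7d and 1.38-fold in TSPCs-56d. The weaker probe set had 171, 191 and 159.9, with ratios of 1.12 and 0.934, so the direction in TSPCs-56d was not shared by both.

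**Figure D3:**
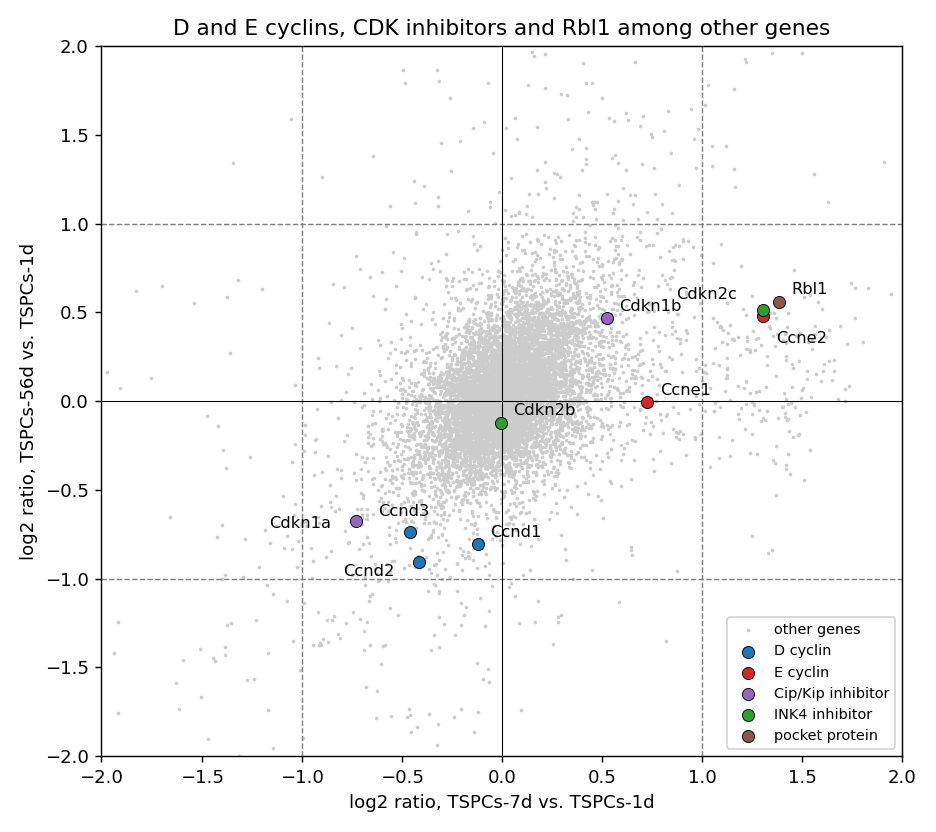
Log2 ratio of signals in TSPCs-7d vs. TSPCs-1d (horizontal) and TSPCs-56d vs. TSPCs-1d (vertical) for the 10 genes by their brightest probe set and, in grey, other genes among the 9382 above the median of mean signal (103 lie outside the axes), with dashed lines at 2-fold. *Ccne2*, *Cdkn2c* and *Rbl1* lie together on the right, *Ccnd1*, *Ccnd2*, *Ccnd3* and *Cdkn1a* at the lower left, and *Cdkn2b*, whose signal is under that median, near the centre.

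In their brightest probe sets, *Ccne2*, *Cdkn2c* and *Rbl1* had nearly the same profile. The weaker probe set of *Cdkn2c* did not share this profile, that of *Ccne2* was dim, and *Rbl1* has a single probe set. In the plane of the log2 ratios of both older cultures over TSPCs-1d, which share the TSPCs-1d array, *Ccne2* and *Cdkn2c* were 0.04 apart, *Cdkn2c* and *Rbl1* 0.09, and *Ccne2* and *Rbl1* 0.11. *Ccnd2* and *Ccnd3* were 0.17 apart, and *Cdkn1a* and *Rbl1* were the farthest pair of members, at 2.45. The change of one gene relative to another within an array does not depend on a factor common to the array. The ratio of *Ccne2* to *Cdkn1a* in TSPCs-7d was 4.10-fold that in TSPCs-1d and 1.84-fold that in TSPCs-56d. The ratio of *Ccne2* to *Ccnd1* in TSPCs-7d was 2.69-fold that in TSPCs-1d but 1.10-fold that in TSPCs-56d. The ratio of *Ccnd1* to *Cdkn1a* in TSPCs-7d was 1.53-fold that in TSPCs-1d and 1.67-fold that in TSPCs-56d.

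Genes with the most similar profiles were found by the distance in the same plane, over 3 arrays, among 9381 genes of at least median mean signal. Nearest to *Ccnd1* were *Plag1*, *Alg10*, *Rap2c*, *Smo* and *Igdcc4*, at distances between 0.02 and 0.07, and 53 genes lay within 0.2. *Plag1*, a zinc finger transcription factor, had signals of 280.02, 256 and 162 from the youngest culture to the oldest, and *Smo*, the signal transducer of Hedgehog, had 380.4, 345 and 228. Nearest to *Ccne2* were *Cdkn2c*, *Xist*, *Col6a3*, *Dsn1* and *Lin9*, and nearest to *Cdkn2c* were *Ccne2*, *Xist*, *Col6a3*, *Dsn1* and *Zfhx4*. Within 0.2 lay 30 genes for *Ccne2* and 24 for *Cdkn2c*. *Col6a3*, a collagen VI chain, had 799.9, 2051 and 1130.3, and *Dsn1*, a kinetochore gene, had 113.5, 293 and 157. *Xist*, the RNA of the inactive X chromosome in female cells, had 823, 2083 and 1159.5. The share of cells from female animals in each culture is not given, and its part in these results was not tested.

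**Figure D4:**
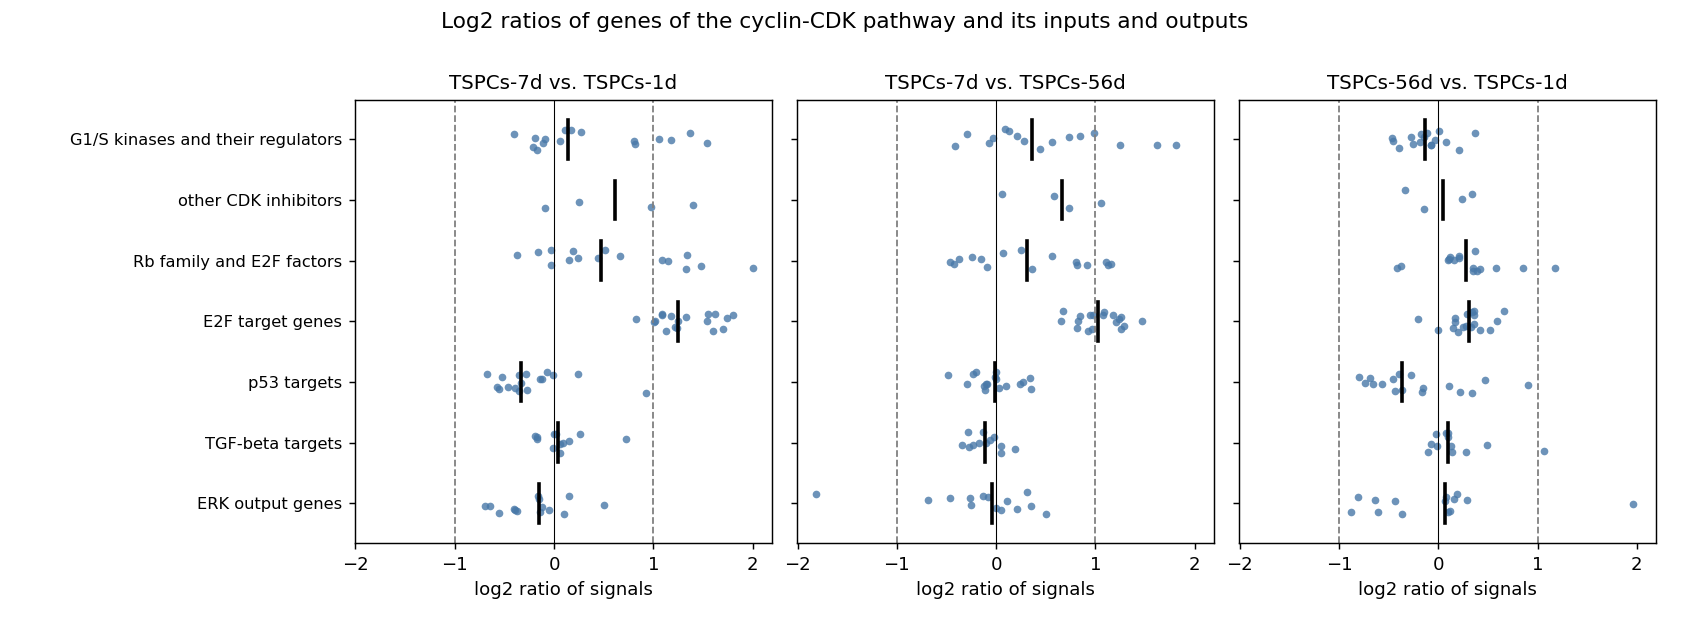
Log2 ratio of signals for each measured gene (1 point, by its brightest probe set) of 7 lists around the cyclins and inhibitors in the 3 comparisons, with a black bar at the median of each list and dashed lines at 2-fold. The E2F targets have medians of 1.25 and 1.03 in TSPCs-7d against TSPCs-1d and TSPCs-56d, and the p53 targets have -0.33 in TSPCs-7d and -0.37 in TSPCs-56d, both against TSPCs-1d (-0.16 for TSPCs-56d with signals floored at the median).

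The partners and inputs of these genes were compared in lists that leave out the 10 genes, with each gene given by its brightest probe set. These lists were also chosen with earlier results known, so their counts are not independent of these data either. Of all genes, 1.87% were called higher and 1.08% lower in TSPCs-7d vs. TSPCs-1d, 2.1% and 1.72% in TSPCs-7d vs. TSPCs-56d, and 2% and 1.77% in TSPCs-56d vs. TSPCs-1d. Of 16 measured G1/S kinases and their regulators, 4 were called higher and 0 lower in TSPCs-7d vs. TSPCs-1d, and the median log2 ratio was 0.14. They were *Ccna2*, *Fbxo5*, *Cdk1* and *Cdk2*. Of these, *Ccna2* and *Cdk1* were already in a list of cell cycle genes that the study drew from these same arrays. The other probe set of *Cdk2* had a ratio of 1.84. *Cdk2*, the kinase of the E cyclins, had signals of 115, 239.8 and 134 from the youngest culture to the oldest, and *Ccna2*, the S phase cyclin that follows them, had 703, 2041 and 579.8. *Cdk4*, the kinase of the D cyclins, named after its values were seen, had 2785, 2997 and 2031. Of the 4 other CDK inhibitors measured, *Cdkn3*, a phosphatase that acts on CDKs, was called in TSPCs-7d, at 2.65-fold its TSPCs-1d signal and 2.08-fold that of TSPCs-56d. *Cdkn2d*, the INK4 gene of p19, named after its values were seen, was at 1.96-fold and 1.92-fold its TSPCs-1d signal in both probe sets.

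Among 16 measured genes of the Rb family, the E2F factors and their partners, 6 were called higher and 0 lower in TSPCs-7d vs. TSPCs-1d. The largest ratio was that of *E2f8*, an E2F factor that represses, with 69.5, 279 and 125, followed by *E2f7*, *Lin9* and *Mybl2*. The other probe set of *Mybl2* had a ratio of 1.25. Of the 6 called genes, 5 were of at least median mean signal. The remaining one, *Tfdp2*, named after its values were seen, had ratios between 0.72 and 2.12 over its 3 probe sets. The pocket protein genes related to *Rbl1*, named after their values were seen, were not called, with 263, 203 and 280.2 for *Rb1* and 323, 317 and 374 for *Rbl2*. Of 18 measured E2F target genes, 17 were called higher in TSPCs-7d against TSPCs-1d and 9 against TSPCs-56d, with medians of 1.25 and 1.03, where those of all genes were 0.01 and -0.05. Averaged over probe sets, *Tk1* (0.98) and *Cdc45* (0.80, named after its values were seen) were under 2-fold against TSPCs-1d, and *Tk1* (0.77) also against TSPCs-56d. Several of the E2F targets, such as *Mcm5*, *Mcm6*, *Mcm7*, *Tk1*, *Pola1*, *Rfc4* and *Uhrf1*, were already in a list of cell cycle genes in the study. That list was drawn from transcripts past 2-fold in both comparisons on these same arrays, so these counts and medians are not independent of it. Among those of at least median mean signal, the leading ones were *Uhrf1*, *Mcm6*, *Mcm7* and *Mcm5*, at 3.49, 3.35, 3.07 and 3.02-fold their TSPCs-1d signals, of which the Mcm genes encode subunits of the replicative helicase. In TSPCs-56d vs. TSPCs-1d the list had a median of 0.31 and 0 calls, and *Ccne2*, *Cdkn2c* and *Rbl1* had 0.48, 0.52 and 0.56.

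The p53 targets were set beside *Cdkn1a*. Of 17 measured, 0 passed 2-fold in any comparison by their brightest probe sets, and 15 had a lower signal in TSPCs-7d than TSPCs-1d, where 47.6% of all genes did. The median log2 ratio was -0.33 in TSPCs-7d and -0.37 in TSPCs-56d, both against TSPCs-1d, with 0.01 and 0.06 over all genes. With signals floored at the median of all signals, the TSPCs-56d value was -0.16. Weaker probe sets passed 2-fold for *Fas*, a death receptor (a ratio of 0.42 in TSPCs-7d vs. TSPCs-1d), and for *Mdm2* (0.458 in TSPCs-56d vs. TSPCs-1d). *Ccng1*, which encodes cyclin G1, had signals of 5123, 4005 and 3730.4, and *Phlda3* had 3351, 2616 and 3006. *Mdm2*, the ubiquitin ligase of p53, had 3153, 2139.96 and 1808 in its brightest probe set, and *Plk2*, a kinase, went the other way with 665, 1267 and 1241. *Fas*, *Mdm2* and *Plk2* were named after their values were seen. Of the 12 measured TGF-beta targets, set beside *Cdkn2b*, 0 were called in TSPCs-7d against either culture, and *Smad6*, an inhibitory Smad, was 2.09-fold its TSPCs-1d signal in TSPCs-56d (1.34-fold in its least changed probe set). Of 14 output genes of ERK signalling, set beside *Ccnd1*, 8 had a higher and 6 a lower signal in TSPCs-56d vs. TSPCs-1d, with a median log2 ratio of 0.07 that changed sign with each array scaled to its median (-0.03). Among the lower ones, 4 were beyond 1.5-fold, where 4.29% of all genes were. Of the higher ones only *Spry1*, a feedback inhibitor of receptor signalling, was, with 151, 167 and 588, where 7.08% of all genes were. A weaker probe set of *Dusp6*, named after its values were seen, had a ratio of 0.41 in TSPCs-56d vs. TSPCs-1d. In TSPCs-7d vs. TSPCs-1d, 11 of the 14 had a lower signal, with a median log2 ratio of -0.16.

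The label of the cells was checked against markers. *Scx*, the tendon transcription factor, had signals between 2255 and 2578, and 3 of 3 mesenchymal surface markers lay above the median of all signals on each array. The other 5 tendon markers measured differed in direction. *Tnmd*, a marker of mature tendon cells, had 543, 351 and 158 from the youngest culture to the oldest, whereas the matrix genes *Thbs4* and *Tnc* had 76.5, 339.6 and 348, and 5280.4, 7303 and 11185, and *Col1a1* and *Col1a2* lay at 14286 or more on each array. Of 5 markers of blood cells and macrophages, *Ptprc*, which encodes CD45, and *Adgre1* were under 48.9 on all arrays, *Csf1r* was between 76.6 and 78.8, *Cd68* between 109 and 143 and *Cd14* between 155 and 162, and their summed signals ranged from 369 to 411. Of 3 endothelial markers, *Pecam1* was under 48.9 on all arrays, and *Kdr* and *Tek* were between 67.4 and 85.2. Of the 2 Schwann cell markers measured, *Sox10* was between 50.02 and 64.4, and *S100b* had 529.8, 535 and 1000.4. The summed signals of 5 skeletal muscle markers were 1989, 1095 and 5599.8 in the same order of cultures, of which *Acta1* had 1772, 855 and 5327, while *Myod1* was under 48.9 on each array. The sums thus mostly follow *Acta1*. *Ckm* had 102, 118 and 127, and *Myog* and *Des* lay between 36.6 and 58.8. The part of these other cell types in the results was not tested.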

How the data were processed

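RNA of cultured TSPCs was labelled with biotin and hybridized to 1 array per age. The methods state that the authors used MAS5 and RMA on the raw data, and the submitters' processing notes list only MAS5. The deposited values are intensity on a linear scale (1 to 19315), and how both algorithms were combined is not stated. The signals were used as they stand. Their medians were 107 (TSPCs-1d), 108 (TSPCs-7d) and 114 (TSPCs-56d).

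Ratios of signals between arrays were taken, with calls beyond 2 or below 0.5, after the study's cutoff. No test was run. Of the probe sets, 20826 have a single gene name in the platform annotation, 436 several and 9780 none, and 20758 of those with a single name match the RefSeq table (GRCr8) by gene ID. Genes other than the 10 were given by the probe set of highest mean signal. The members and lists were chosen with earlier results of these data known. Named list genes are up to 4 past 2-fold per direction and comparison, of at least median mean signal, or otherwise the 2 of highest signal, and any beyond these are marked as named after their values were seen. Signals under the 25th percentile (48.9) were called dim.

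Other settings were scaling to the median, quantile normalization, loess centring (span 0.2), a floor at 48.9 or 110.1, a pseudocount of 32, a filter at the median of mean signal, cutoffs of 1.5 and 3, removal of cross-hybridizing probe sets, and counting by gene. The script was tested on simulated data. Versions were Python 3.11.15, numpy 2.4.6, pandas 2.3.3, statsmodels 0.14.6 (loess) and matplotlib 3.10.9 (plots).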

Additional observations from a re-analysis of the deposited data

How the results depend on the processing

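The count of called probe sets depended on the cutoff and on how probe sets of a gene were combined. In TSPCs-7d vs. TSPCs-1d, 3 of 16 were called at 2-fold, all higher, with 6 at 1.5-fold (4 higher and 2 lower) and 0 at 3-fold. Averaging the log2 ratios over the probe sets of a gene left 1, *Rbl1*, and scaling to the median added 1 lower, *Cdkn1a*. In TSPCs-7d vs. TSPCs-56d, 0 were called at 2-fold and 6 at 1.5-fold, all higher. In TSPCs-56d vs. TSPCs-1d, 1 was called lower at 2-fold, with 2 after scaling to the median, 7 at 1.5-fold, 0 at 3-fold, and 0 when genes were counted by their brightest probe set or by the average. In that comparison the lists held 3 genes called higher, and 1 by the average. They held 28 called higher in TSPCs-7d vs. TSPCs-1d and 16 in TSPCs-7d vs. TSPCs-56d, with 23 and 14 by the average. Of 288 log2 ratios of the members (48 ratios under 6 settings), 0 calls were lost, 2 were gained and 8 changed sign, each of these with a size of at most 0.06 as deposited. The floors and the pseudocount can only shrink a ratio. Under them a call could be lost, but none could be gained and no sign could change. The calls of *Ccne2* and *Cdkn2c* each rest on 1 of 2 probe sets. No paired analysis was possible because each age has a single array, and for the same reason no array could be left out.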

Other observations

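Some list genes had probe sets that disagreed in direction. *Cks1b*, a small subunit of CDK complexes, had ratios of 1.75 in its brighter and 0.32 in its weaker probe set in TSPCs-7d vs. TSPCs-1d, and of 1.98 and 0.34 in TSPCs-7d vs. TSPCs-56d. The study already listed ratios of 0.32 and 0.34, for a probe set that it assigned to another locus, described as similar to CKS-1. Both *Cks1b* probe sets may thus not measure the same gene. *Cdc45*, a subunit of the replicative helicase, had ratios between 0.75 and 2.72 over its 4 probe sets in TSPCs-7d vs. TSPCs-1d.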
